A study of Homo sapiens with 9 samples.

Results

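Chromosome 19 carries the densest gathering of C2H2 zinc finger genes in the human genome, and those whose symbol is ZNF followed by a number were followed here through the exit from naive pluripotency. They were taken by name and chromosome alone, which gave 241 genes of the 56312 entries in the count table. A further 237 genes with such a name lie on other chromosomes, and 2528 other entries lie on chromosome 19. Of the 241 genes, 240 passed the filter on low counts, and the exception was ZNF536, with 1 count over all libraries.

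The cells were HNES1, a wild-type pluripotent line derived from a human embryo, collected on day 5 after the naive medium was replaced by N2B27 with the tankyrase inhibitor XAV939. In group PROTAC they received UNC6852 at 2.5 µM, which brings EED, a subunit of Polycomb repressive complex 2 (PRC2), to the ubiquitin ligase VHL so that EED is degraded. In group UNC they received UNC1999 at 1 µM, which blocks the catalytic subunits EZH1 and EZH2, and group DMSO received the vehicle. All groups thus went through the same change of medium and had 3 RNA sequencing libraries each, every compound being added a day before the change and renewed daily. No group without vehicle or from another day was analysed here, and everything comes from a single line. Mouse fibroblast feeders had been used for upkeep of the naive cells before they were plated on Geltrex. The 9 libraries held 31651742 to 101081643 counts. EED transcripts were at 12.4 ± 0.342 CPM (counts scaled to a library total of 1000000) in PROTAC, 12.1 ± 0.758 CPM in UNC and 11.6 ± 0.73 CPM in DMSO (SD, n = 3 each), and a degrader of the protein need not lower its transcript.

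A C2H2 finger is a short loop held by 2 cysteines and 2 histidines around a zinc ion, and arrays of such fingers read DNA. Many proteins of this class also carry a KRAB domain, which recruits the corepressor TRIM28 and through it the histone methyltransferase SETDB1 and heterochromatin protein 1, and they are best known for silencing transposable elements in early embryonic and pluripotent cells. Clusters of these genes arose by tandem duplication, and their bodies carry H3K9me3 in many cell types, a mark distinct from the H3K27me3 that PRC2 deposits. The comparisons with DMSO ask whether their transcripts change when PRC2 is removed or blocked during the transition.

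Cell identity was read from marker lists. Of 7 markers of pluripotent cells in general, the 6 named in the table summed to 4280 to 4490 CPM in PROTAC, 4270 to 4690 CPM in UNC and 4000 to 4320 CPM in DMSO. Both naive markers (6 genes, 752 to 952 CPM over all libraries) and primed markers (6 genes, 624 to 803 CPM) were present. Trophoblast markers summed to 14.7 to 42.4 CPM in PROTAC, 9.9 to 25.6 CPM in UNC and 18.1 to 44.0 CPM in DMSO. The 7 fibroblast markers summed to 232 to 255 CPM in PROTAC, 159 to 208 CPM in UNC and 233 to 286 CPM in DMSO. Of these 7, 4 were under 1 CPM, LUM was at 0, and COL1A2 was the highest. The 3 mesoderm markers summed to 3.37 to 7.63 CPM in PROTAC, 2.5 to 4.18 CPM in UNC and 6.19 to 8.95 CPM in DMSO. Sums of the 4 amnion markers (3.19 to 4.65 CPM) and the 4 endoderm markers (4.21 to 7.77 CPM) overlapped between all groups. The fibroblast and mesoderm sums were lower in every UNC library than in every DMSO library, and their part in the UNC results below was not tested. Mitochondrial genes took 3.21% to 3.68% of counts in PROTAC, 3.33% to 4.66% in UNC and 4.14% to 5.12% in DMSO. That share was lower in every PROTAC library than in every DMSO library, and its part in the PROTAC results was not tested.

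The 241 genes formed 7 clusters when a gap of more than 1 Mb between neighbouring starts began a new cluster and 8 genes were the minimum. On GRCh38, cluster 1 runs from 7.07 to 9.79 Mb (15 genes, ZNF557 to ZNF846), cluster 2 from 11.48 to 12.64 Mb (25 genes, ZNF653 to ZNF791) and cluster 3 from 19.67 to 24.13 Mb (37 genes, ZNF101 to ZNF254). On the long arm, cluster 4 runs from 36.18 to 37.82 Mb (25 genes, ZNF565 to ZNF573) and cluster 5 from 43.53 to 45.08 Mb (24 genes, ZNF575 to ZNF296). Cluster 6 covers 51.57 to 53.58 Mb (39 genes, ZNF175 to ZNF331) and cluster 7 covers 55.48 to 58.48 Mb (57 genes, ZNF628 to ZNF446). The remaining 19 genes were scattered. A gap of 0.5 Mb gave 8 clusters and a gap of 2 Mb gave 5.

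Coding sequences of 240 of the genes were found in GENCODE 29, and they encode a median of 12 fingers, against 9 in the 236 ZNF genes of other chromosomes with a coding sequence. The count ran from 0 to 36, with ZNF208 at 36, ZNF729 at 34 and ZNF91 at 31. A letter pattern for the KRAB A box was found in 187 of 240, against 58 of 236 on other chromosomes. It was most common in cluster 3 (34 of 37) and cluster 2 (22 of 25), and less so in cluster 7 (40 of 57). Likeness between genes of different clusters is shown on a single pair of fingers, and no other pair was compared. The third finger of ZNF675 in cluster 3, whose transcript was higher in UNC, and that of ZNF600 in cluster 6, lower under both compounds, are printed from the reference genome as DNA, with the codons of the zinc-binding cysteines and histidines in capitals (chr19:23653931-23653993 and chr19:52766952-52767014, both minus strand, GRCh38). Of their 63 bases, 43 are identical.
ZNF675: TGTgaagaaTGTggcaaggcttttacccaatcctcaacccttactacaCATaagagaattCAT
ZNF600: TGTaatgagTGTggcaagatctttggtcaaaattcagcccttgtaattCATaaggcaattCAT

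Such likeness bears on counting, because reads from a stretch shared by several genes may be split or lost. A median of 2.3% of the 50-base words of a gene's longest transcript also occurred in a transcript of another gene, 52 genes were above 10%, and 12 were above 50%. ZNF320 reached 99.48%, ZNF468 99.15% and ZNF177 97.82%. Entries at the same locus count as another gene here, and ZNF177 overlaps the joint entry ZNF559-ZNF177. Such shares may therefore include a gene's own exons, and were not split from likeness between separate genes. In addition, 181 of the 241 genes overlap another entry when whole genes with their introns are compared. Overlap of exons was not measured, and the strand setting of the count is not given in the sources used here. Which of these genes share reads with a neighbour is therefore not known.

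Promoters differed between clusters. RefSeq (GRCh38.p14) gave a promoter, 250 bases before to 50 after the start, for 210 of the genes. They held a median of 20 CpG, against 14 in all 35116 promoters of that table. Cluster 3 stood low with a median of 10 (range 8 to 18), cluster 2 had 16, and cluster 6 was highest with 24.5 (range 14 to 30). The letters CCAATCA, searched on both strands and containing those of a CCAAT box, were present in all 29 cluster 3 promoters and in 22 of 24 in cluster 2, but in 0 of 14 in cluster 1, 0 of 23 in cluster 4 and 3.12% in cluster 6, against 6.95% of all promoters. The letters CCGGAAG, an ETS-type core that itself holds a CpG, were in 72.4% of cluster 3 and 65.6% of cluster 6 promoters, but in 8.33% in cluster 2, against 10.3% of all. These letters were searched after promoters had been read, and a match is a description, not a binding site. The promoters of 4 genes called in the comparisons below show the contrast between clusters 3 and 6, with each CpG in capitals. ZNF675 (chr19:23687163-23687462, minus strand, 10 CpG) and ZNF430 (chr19:21020407-21020706, plus strand, 13 CpG) are in cluster 3. ZNF578 (chr19:52453303-52453602, plus strand, 21 CpG) and ZNF528 (chr19:52397599-52397898, plus strand, 27 CpG) are in cluster 6.
ZNF675: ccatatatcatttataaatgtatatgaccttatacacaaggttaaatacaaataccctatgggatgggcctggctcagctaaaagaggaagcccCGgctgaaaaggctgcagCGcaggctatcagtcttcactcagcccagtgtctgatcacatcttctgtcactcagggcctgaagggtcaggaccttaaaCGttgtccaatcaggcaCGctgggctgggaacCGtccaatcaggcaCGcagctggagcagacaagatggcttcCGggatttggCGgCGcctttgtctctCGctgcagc
ZNF430: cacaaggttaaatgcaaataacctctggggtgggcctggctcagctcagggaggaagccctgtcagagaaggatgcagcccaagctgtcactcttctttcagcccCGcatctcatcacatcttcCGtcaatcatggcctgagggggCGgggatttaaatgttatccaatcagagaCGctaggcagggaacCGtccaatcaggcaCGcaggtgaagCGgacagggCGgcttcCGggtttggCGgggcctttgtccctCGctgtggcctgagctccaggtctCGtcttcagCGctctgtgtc
ZNF578: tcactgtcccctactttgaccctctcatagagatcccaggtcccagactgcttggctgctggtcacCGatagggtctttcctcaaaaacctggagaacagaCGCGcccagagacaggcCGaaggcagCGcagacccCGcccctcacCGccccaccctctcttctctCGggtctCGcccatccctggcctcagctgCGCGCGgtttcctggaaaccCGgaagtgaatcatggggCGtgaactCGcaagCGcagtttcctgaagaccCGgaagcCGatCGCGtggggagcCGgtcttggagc
ZNF528: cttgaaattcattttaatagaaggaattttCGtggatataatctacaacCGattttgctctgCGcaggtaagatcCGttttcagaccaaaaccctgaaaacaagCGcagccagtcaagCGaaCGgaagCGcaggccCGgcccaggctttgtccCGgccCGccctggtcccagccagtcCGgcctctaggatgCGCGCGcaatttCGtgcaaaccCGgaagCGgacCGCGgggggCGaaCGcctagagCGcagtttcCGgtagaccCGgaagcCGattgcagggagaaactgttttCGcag
The repeated ccaatcag in the ZNF675 and ZNF430 promoters, and the repeated acccggaag in those of ZNF578 and ZNF528, are the motif letters counted above. The ZNF675 and ZNF430 promoters also hold cttccgg, which is CCGGAAG on the other strand, so these letters do not set cluster 3 apart from cluster 6.

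The genes were broadly but moderately transcribed. Together they took 0.649% to 0.788% of each library's counts. Mean levels over the 9 libraries had quartiles of 7.25, 16.3 and 34.1 CPM, against a median of 5.97 CPM for all genes tested, and 233 of 241 genes reached 1 CPM. The 8 under 1 CPM were ZNF491, ZNF536, ZNF540, ZNF781, ZNF546, ZNF575, ZNF547 and ZNF497. The 5 highest were ZNF208 (470 CPM), ZNF90 (399 CPM), ZNF121 (239 CPM), ZNF486 (215 CPM) and ZNF146 (177 CPM), the last of these encoding a protein made almost wholly of fingers. Per kilobase of exon the order changed, with ZNF90 at 79.6 CPM per kb, ZNF208 at 68.5, ZNF486 at 50.3, ZNF146 at 42.8 and ZNF121 at 33. Of the 5, ZNF208, ZNF90 and ZNF486 lie in cluster 3.

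ZNF208 had 524, 375 and 450 CPM in PROTAC replicates 1 to 3, 588, 409 and 425 CPM in UNC, and 577, 420 and 465 CPM in DMSO. Replicate 1 was the highest and replicate 2 the lowest in all groups, and the groups overlapped. ZNF90 was steadier, with 401, 379 and 387 CPM in PROTAC, 422, 426 and 388 CPM in UNC, and 417, 387 and 389 CPM in DMSO. ZNF121 was at 243 ± 5.81 CPM in PROTAC, 231 ± 12.2 CPM in UNC and 243 ± 5.61 CPM in DMSO.

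Cluster 3 supplied more transcript than any other cluster. Its genes summed to 2470 ± 228 CPM in PROTAC, 2590 ± 259 CPM in UNC and 2550 ± 192 CPM in DMSO (SD, n = 3 each). Cluster 6 summed to 1400 ± 79.8 CPM in PROTAC, 1390 ± 90.9 CPM in UNC and 1460 ± 61.4 CPM in DMSO. Cluster 7, with the most genes, reached 1090 ± 32.3 CPM in PROTAC, 1110 ± 43.8 CPM in UNC and 1120 ± 51.1 CPM in DMSO. The smallest cluster sum was that of cluster 5, at 225 ± 12.8 CPM in PROTAC, 235 ± 11.5 CPM in UNC and 234 ± 10.8 CPM in DMSO. In every cluster the ranges of the 3 groups overlapped. The replicate number moved the sums more than the compound in cluster 3, where replicate 1 was highest and replicate 2 lowest in each group.

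**Figure D1:**
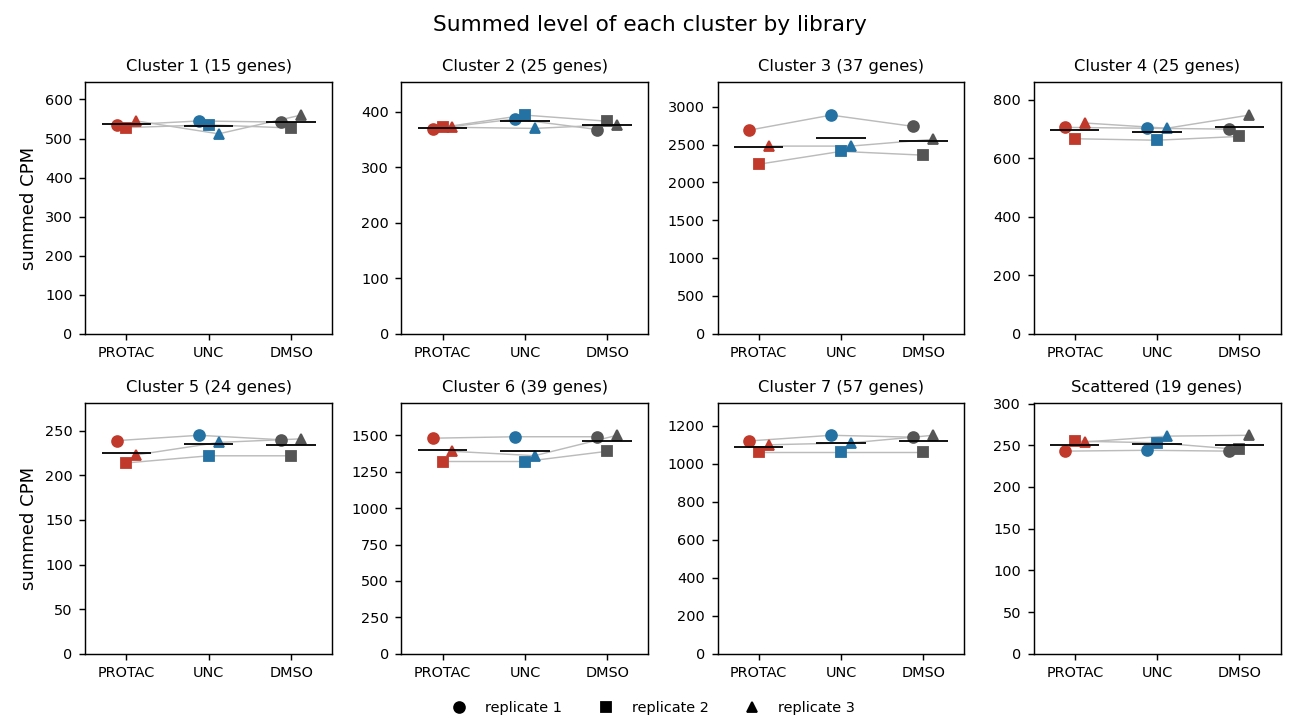
Summed CPM (y axis, from 0) of the genes of each cluster in each library, by group (x axis). Marker shapes give the replicate number, grey lines join libraries with the same number and black bars are group means; the 3 groups overlap in every panel, and in cluster 3 replicate 1 is the highest of each group.

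The same held gene by gene. The means of the 3 replicate numbers spanned a wider log2 range than the means of the 3 groups in 181 of 240 genes (75.4%), against 65.4% of all genes with a mean of at least 1 CPM. The median range was 0.237 between numbers and 0.126 between groups for the chromosome 19 genes, and 0.204 and 0.146 for those of the whole table. Each comparison was therefore fitted by group alone and, since libraries with the same number deviated together, also with the number as a block (the paired fit). In both, a gene was called at a false discovery rate of 0.05 over all 24187 genes tested with edgeR's quasi-likelihood test and Benjamini-Hochberg adjustment. Every adjusted p below comes from this test unless DESeq2 is named.

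By group alone none of these genes was called in any comparison. In bulk RNA, fewer cells of a type and less RNA per cell cannot be told apart. In PROTAC against DMSO the count was 0 of 240, with 0.0% of all genes called. At an unadjusted p under 0.05 there were 2 members (0.833%), against 4.96% of all genes, and DESeq2 and limma-voom also called 0, where they called 0.0951% and 0.0% of all genes. In UNC against DMSO the count was 0, with 0.719% of all genes called. At the unadjusted p there were 10 members (4.17%), against 12.4% of all genes. DESeq2 called 3 (ZNF254 and ZNF723 higher, ZNF578 lower), where it called 3.31% of all genes, and limma-voom called 0, where it called 0.649%. In PROTAC against UNC, whose doses and modes of action differ, the count was 0, with 0.00827% of all genes called, 3 members at the unadjusted p (1.25% against 4.7%), and 0 by DESeq2 and limma-voom, which called 0.533% and 0.00413% of all genes.

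With replicates paired, 12 of the 240 genes differed under UNC1999, 5 higher and 7 lower than in DMSO. That share, 5.0%, stood below the 13.5% called among all genes (7.04% higher and 6.46% lower). Of the 229 ZNF genes tested on other chromosomes, 10 were higher and 14 lower (10.5%), and of 1586 other genes on chromosome 19, 37 were higher and 86 lower (7.76%). Among genes with a mean of at least 1 CPM, 4.72% of the chromosome 19 ZNF genes and 18.2% of all genes were called. The count of 12 was 19 without DMSO replicate 1, 7 without DMSO replicate 2 and 5 without UNC replicate 2. The share of all genes called is not given here for these leave-outs or those below, so such shifts may not be particular to these genes. DESeq2 with the same block split its 12 calls into 9 higher and 3 lower, where it called 12.7% of all genes. Under UNC6852 4 genes differed, all lower than in DMSO (1.67%), where 2.99% of all genes were called, 2.01% higher and 0.984% lower. PROTAC against UNC gave 4 genes, all lower in PROTAC (1.67%), where 2.91% of all genes were called, 2.17% higher and 0.74% lower.

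The fold changes were small throughout. In the paired fit, 215 of 240 genes (89.6%) were within 0.2 of 0 on the log2 scale in PROTAC, against 68.6% of all genes, and 213 (88.8%) were in UNC, against 61.3%. Among genes with a mean of at least 1 CPM these shares were 91.0% against 83.6% in PROTAC and 89.3% against 74.3% in UNC. Of the ZNF genes tested on other chromosomes, at any level, 86.9% were within 0.2 in PROTAC and 78.6% in UNC. In PROTAC the small changes were thus nearly shared by those genes. Of the chromosome 19 ZNF genes, only ZNF540 and ZNF781, both at under 1 CPM, were beyond 0.5 in either comparison with DMSO. The median log2 fold change was -0.05 in PROTAC, with 77 of 240 genes (32.1%) above 0, against -0.01 and 47.9% over all genes. In UNC it was -0.02, with 43.3% above 0, against -0.01 and 48.1%. The lean in PROTAC was uneven over the pairs of libraries: 124 genes were lower in pair 1, 153 in pair 2 and 171 in pair 3, with medians of -0.01, -0.04 and -0.10. ZNF genes on other chromosomes had a median of -0.05 in PROTAC too, with 36.2% above 0.

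**Figure D2:**
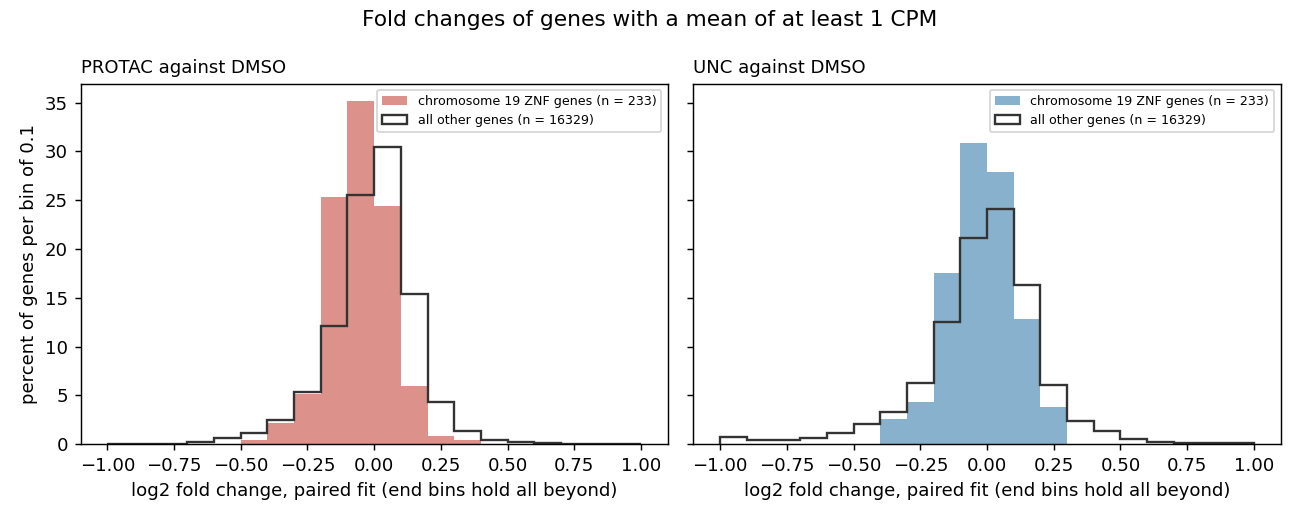
Distribution of log2 fold changes of the paired fit (x axis) for genes with a mean of at least 1 CPM, as percent of genes per bin (y axis), for the chromosome 19 ZNF genes (filled) and all other genes (line), in PROTAC and UNC against DMSO. The chromosome 19 ZNF genes are gathered more tightly around 0 than all other genes, with 91.0% within 0.2 in PROTAC and 89.3% in UNC. ZNF genes of other chromosomes are part of the line and are not drawn apart.

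The groups seldom separated fully. PROTAC and DMSO libraries did not overlap in 6 genes with PROTAC higher and 13 with PROTAC lower (7.92%), against 11.5% of all genes (6.06% higher, 5.44% lower). UNC and DMSO did not overlap in 13 genes with UNC higher and 6 with UNC lower (7.92%), against 17.4% (8.34% higher, 9.07% lower). Between PROTAC and UNC there were 5 such genes with PROTAC higher and 11 with PROTAC lower (6.67%), against 9.1% (5.16% higher, 3.93% lower).

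The calls were set out by position along the chromosome. In UNC against DMSO, cluster 3 held 4 of the 5 genes called higher and 1 called lower, and cluster 1 held the other rise. The share called in cluster 3 was 13.5%, the same as the 13.5% of all genes. The remaining falls were 2 each in clusters 4, 6 and 7, and no gene of clusters 2 and 5 was called. The median SE was 0.0594 in cluster 3, 0.0853 in cluster 2 and 0.098 in cluster 5, so a given change was easier to call in cluster 3. In PROTAC against DMSO the calls were 3 falls in cluster 6 (7.69% of its genes) and 1 in cluster 4 (4.0%), against 2.99% of all genes. Between the compounds, 3 of the 4 calls were in cluster 3 (8.11%) and 1 in cluster 5 (4.17%), against 2.91% of all genes. The positions depended on the tool. In UNC against DMSO, DESeq2 with the same block had 5 of its 9 rises in cluster 3 and 1 each in clusters 1, 2, 4 and 7. Its 3 falls were 2 in cluster 6 and 1 in cluster 7. It called 13.5% of cluster 3 and 12.7% of all genes. Between the compounds its 4 calls were all in cluster 3.

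Cluster medians of the paired log2 fold change ran from -0.11 in cluster 5 to 0.04 in cluster 2 in PROTAC, and from -0.09 in cluster 4 to 0.04 in cluster 2 in UNC. In cluster 5, 2 of 24 genes were above 0 in PROTAC against DMSO, with medians of -0.07, -0.11 and -0.24 in pairs 1 to 3, and 11 of 24 in UNC against DMSO. Against UNC, cluster 5 had a median of -0.12 in PROTAC, with 3 of 24 above 0 and pair medians of -0.16, -0.09 and -0.11, but ZNF235 was its only called gene. Cluster 3 had 4 of 37 genes lower in UNC than in DMSO in pair 1, 21 in pair 2 and 26 in pair 3, so its pairs disagreed. No test was made of a cluster as a whole.

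**Figure D3:**
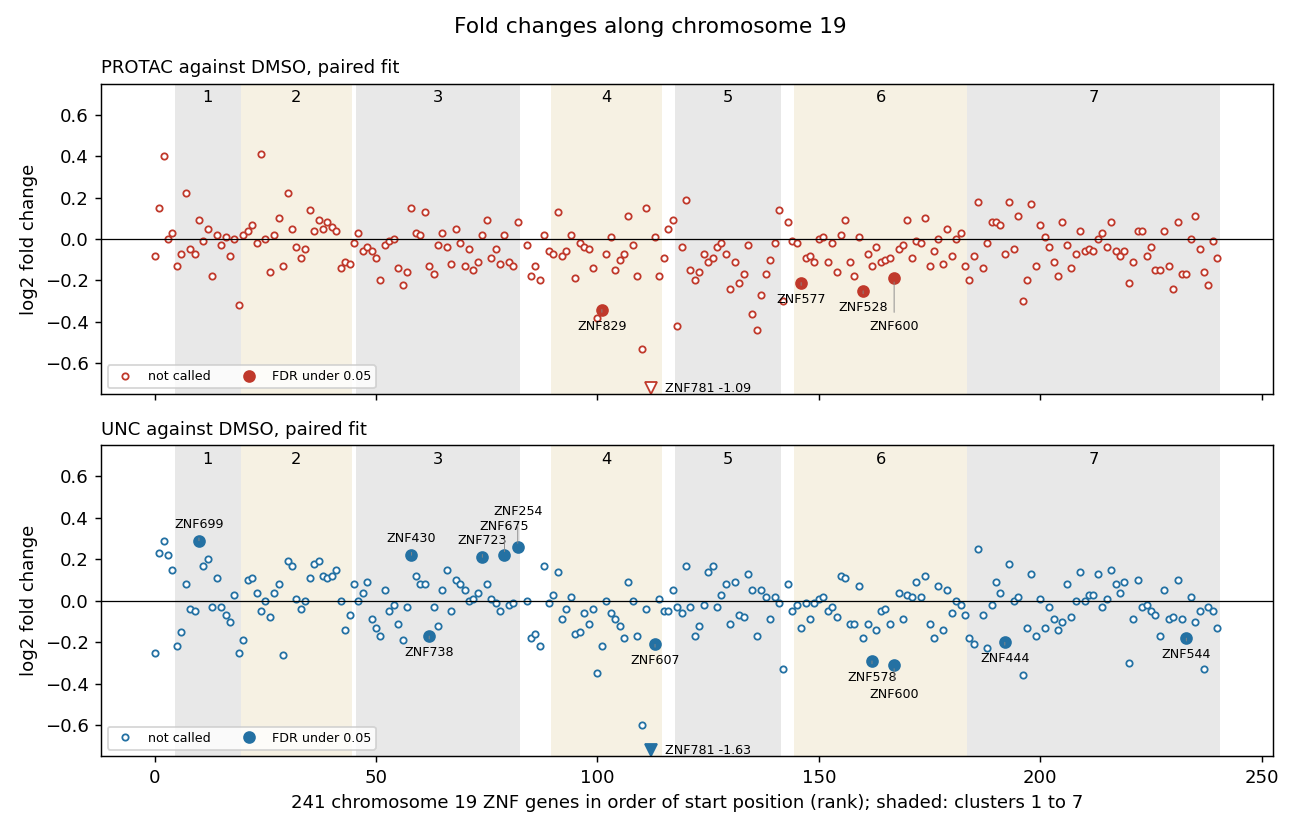
Log2 fold change of the paired fit (y axis) for each chromosome 19 ZNF gene in its order along the chromosome (x axis, rank), for PROTAC against DMSO above and UNC against DMSO below, with clusters 1 to 7 shaded. Filled points passed a false discovery rate of 0.05, and triangles at the edge are values outside the axis. In UNC 4 of the 5 rises lie in cluster 3, where 13.5% of genes were called, as among all genes. DESeq2 with the same block, not drawn, had 5 of its 9 UNC rises in cluster 3. In PROTAC 3 of the 4 falls lie in cluster 6 (7.69% of its genes called, against 2.99% of all).

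The UNC rises in cluster 3 were of a similar size. ZNF254 had 50.9, 50.4 and 50.4 CPM in UNC replicates 1 to 3, and 42.8, 41.0 and 42.5 CPM in DMSO. Every UNC library lay above every DMSO library, and the gap between the groups was wider than the range within either. The paired log2 fold change was 0.26 (SE 0.0563, adjusted p = 0.00105), and by group alone it was 0.26 with an adjusted p of 0.105. PROTAC libraries had 47.1, 44.1 and 42.2 CPM, overlapping DMSO. Of the 12 fits leaving out a library or a replicate number, the call was lost without number 2.

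ZNF675 encodes a KRAB protein known to bind TRAF6 and to dampen its signalling, and its promoter is printed above. It had 70.6, 88.8 and 78.2 CPM in UNC, and 62.2, 72.7 and 68.9 CPM in DMSO. The groups overlapped, but UNC was higher in 3 of 3 pairs (log2 fold change 0.22, SE 0.0522, adjusted p = 0.00337, and 0.387 by group alone). The call was lost without UNC replicate 2, DMSO replicate 2 or number 2.

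ZNF430 had 40.1, 39.9 and 37.9 CPM in UNC, and 34.2, 34.2 and 32.9 CPM in DMSO, without overlap (log2 fold change 0.22, SE 0.0588, adjusted p = 0.00986). PROTAC also lay above DMSO, at 39.5, 36.0 and 37.1 CPM, but was not called (0.15, adjusted p = 0.175). ZNF723 had 59.6, 57.7 and 56.6 CPM in UNC, and 49.6, 51.5 and 49.5 CPM in DMSO (0.21, SE 0.0543, adjusted p = 0.00771). Both genes separated the groups fully. By group alone their adjusted p were 0.193 and 0.175. ZNF430 lost its call without UNC replicate 2, DMSO replicate 3, number 2 or number 3, and ZNF723 without UNC replicate 1, DMSO replicate 1 or number 2.

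ZNF699 in cluster 1 was the other rise. It had 17.2, 19.1 and 16.5 CPM in UNC, and 14.2, 14.8 and 14.2 CPM in DMSO, and the groups did not overlap. The log2 fold change was 0.29 (SE 0.0748, adjusted p = 0.00682, and 0.203 by group alone), and it was lost without UNC replicate 1, UNC replicate 2, DMSO replicate 2 or number 2.

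Among the falls in UNC, ZNF578 and ZNF600 in cluster 6 kept their calls in all 17 paired fits (the paired fit, 4 with another scaling, filter or tool, and 12 leaving out libraries). ZNF578, the most abundant of the called genes, had 162, 159 and 137 CPM in UNC, and 191, 187 and 180 CPM in DMSO. The groups did not overlap (paired log2 fold change -0.29, SE 0.0508, adjusted p = 9.74e-05, and 0.107 by group alone). PROTAC lay between them at 175, 170 and 164 CPM, without overlap with either group, and was not called against DMSO (-0.13, adjusted p = 0.164).

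ZNF600 had 83.7, 57.8 and 69.1 CPM in UNC, 91.9, 61.6 and 75.7 CPM in PROTAC, and 95.5, 73.6 and 90.2 CPM in DMSO. All 3 groups overlapped, with replicate 2 the lowest of each, yet within each number DMSO was highest and UNC lowest. The log2 fold change was -0.31 in UNC (SE 0.0538, adjusted p = 8.27e-05) and -0.19 in PROTAC (SE 0.0538, adjusted p = 0.0459). By group alone the adjusted p were 0.496 and 0.993. The difference between the compounds, 0.12, was not called (adjusted p = 0.314). Of its 50-base words 15.95% occur in other genes. The PROTAC call was lost in 9 of the 12 leave-outs, all but those without PROTAC replicate 1, DMSO replicate 1 and number 1.

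The other falls in UNC were smaller or less firm. ZNF444, a SCAN domain protein in cluster 7, had 24.4, 23.3 and 24.6 CPM in UNC, and 27.8, 26.2 and 28.8 CPM in DMSO, without overlap (-0.20, adjusted p = 0.037). ZNF607 had 25.3, 21.6 and 25.2 CPM in UNC, and 24.6, 26.6 and 33.3 CPM in DMSO (-0.21, adjusted p = 0.0391), and was lower in only 2 of 3 pairs. ZNF544 (-0.18, adjusted p = 0.0446) had 36.9, 25.0 and 29.1 CPM in UNC, and 38.3, 29.7 and 35.1 CPM in DMSO.

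ZNF738, whose GENCODE 29 coding sequence has a KRAB A box but 0 fingers, had 60.2, 48.7 and 52.0 CPM in UNC, and 64.9, 54.8 and 61.2 CPM in DMSO (-0.17, adjusted p = 0.0344). It and ZNF544 were lower in 3 of 3 pairs, with overlap between the groups. These 4 genes had group-alone adjusted p of 0.364 to 0.697 and were lost in 7 of 12 leave-outs, or 10 for ZNF444, always including those without UNC replicate 2, UNC replicate 3, DMSO replicate 2 and DMSO replicate 3. DESeq2 with the same block called ZNF444 but not ZNF607, ZNF544 or ZNF738 (adjusted p = 0.0692, 0.0618 and 0.0513).

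ZNF781 was named after its values were seen, since it is below 1 CPM. It had 0.317, 0.204 and 0.152 CPM in UNC, and 0.925, 0.368 and 0.801 CPM in DMSO, and its paired log2 fold change was -1.63 (SE 0.366, adjusted p = 0.0018 in this fit, and 0.13 by group alone). It overlaps ZFP30 on the same strand, so its few reads may belong there. The call was lost without number 3, and DESeq2 with the same block gave no adjusted p for it.

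**Figure D4:**
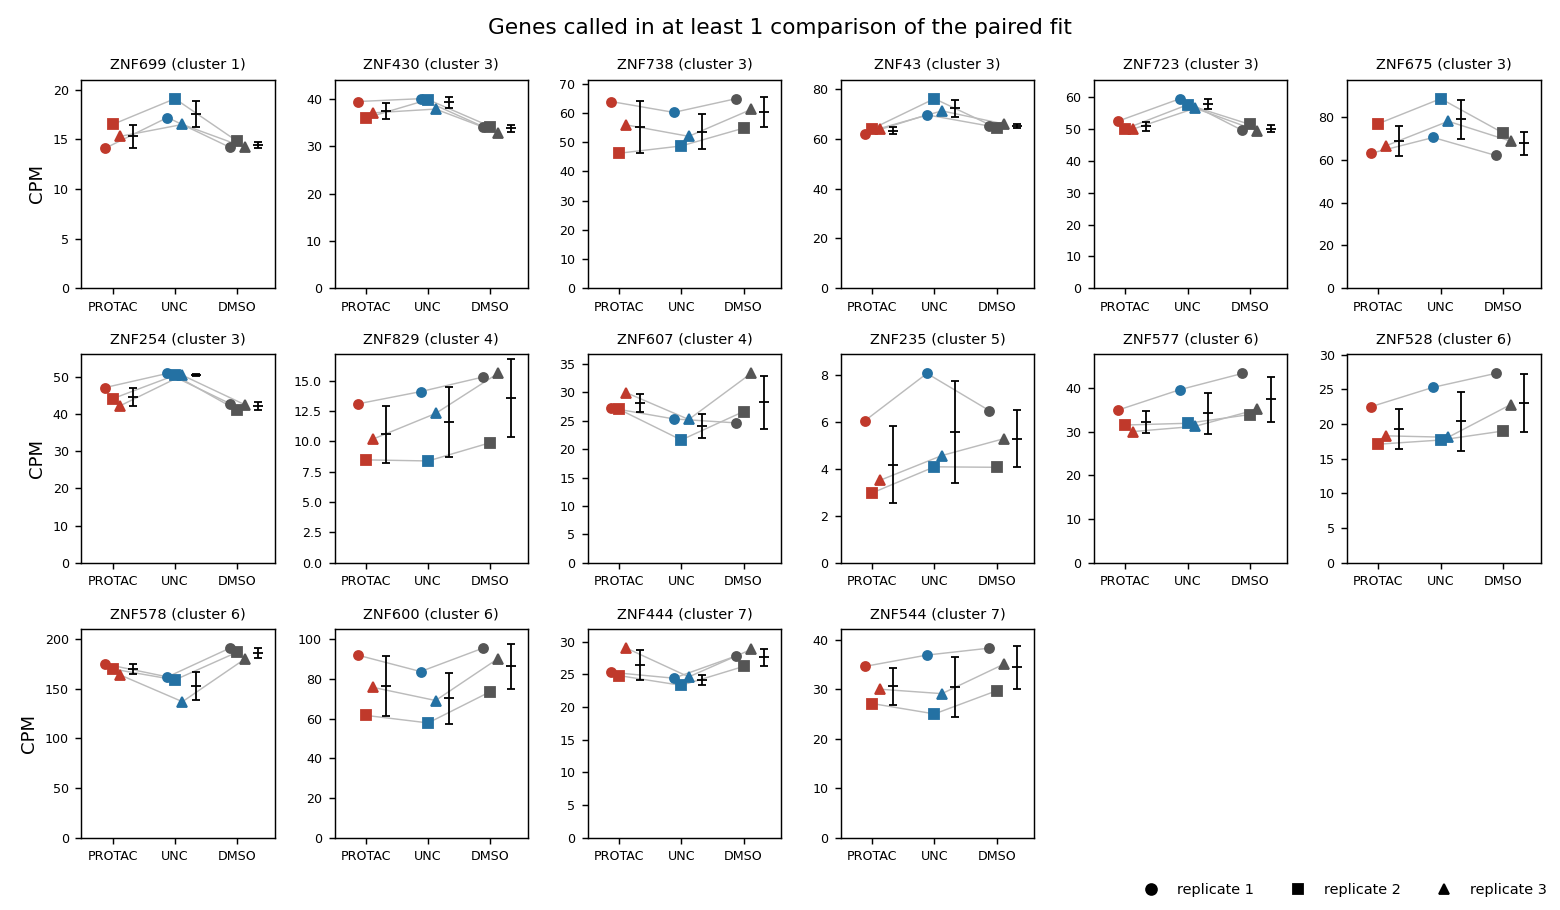
CPM (y axis, from 0) by group (x axis) for the 16 genes with a mean of at least 1 CPM called in at least 1 comparison of the paired fit. Shapes give the replicate number, grey lines join equal numbers, and bars beside the points are means ± SD (n = 3); ZNF254 and ZNF723 are higher in UNC than in DMSO without overlap, while in ZNF600 and ZNF829 replicate 2 is the lowest of each group.

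The PROTAC falls lay in clusters 4 and 6. ZNF829 had 13.1, 8.48 and 10.2 CPM in PROTAC, and 15.3, 9.9 and 15.6 CPM in DMSO. The groups overlapped, with PROTAC lower in 3 of 3 pairs (log2 fold change -0.34, SE 0.0864, adjusted p = 0.0225, and 0.993 by group alone). It overlaps ZNF345 on the opposite strand. The call was lost without PROTAC replicate 3, DMSO replicate 3, number 2 or number 3. In UNC against DMSO the paired fit did not call ZNF829, but with library-size scaling it was called lower there too (-0.25, adjusted p = 0.0486).

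ZNF528 had 22.5, 17.1 and 18.3 CPM in PROTAC, and 27.3, 19 and 22.8 CPM in DMSO (-0.25, SE 0.0708, adjusted p = 0.0438). ZNF577 had 34.9, 31.5 and 30.0 CPM in PROTAC, and 43.3, 33.9 and 35.1 CPM in DMSO (-0.21, SE 0.061, adjusted p = 0.0432). Both were lower in 3 of 3 pairs with overlap between the groups, and both had a group-alone adjusted p of 0.993. ZNF577 was called in 0 of the 12 leave-outs and ZNF528 only without UNC replicate 3. In UNC against DMSO the paired fit did not call ZNF528 either, but with library-size scaling it was called lower (-0.21, adjusted p = 0.0497). The whole PROTAC count rested on single libraries: it was 10 without DMSO replicate 1, 2 without PROTAC replicate 1 or UNC replicate 3, 1 without PROTAC replicate 2, UNC replicate 1, UNC replicate 2 or DMSO replicate 2, and 0 without PROTAC replicate 3 or DMSO replicate 3.

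Set directly against UNC, PROTAC had lower levels of ZNF675, ZNF723 and ZNF43 in cluster 3. ZNF675 had 63.2, 77.1 and 66.7 CPM in PROTAC, and 70.6, 88.8 and 78.2 CPM in UNC (-0.20, SE 0.0523, adjusted p = 0.0283). ZNF723 had 52.5, 50.1 and 50 CPM in PROTAC, and 59.6, 57.7 and 56.6 CPM in UNC (-0.19, SE 0.0544, adjusted p = 0.0481). ZNF43 had 61.8, 64.0 and 64.1 CPM in PROTAC, and 69.6, 76.1 and 71.2 CPM in UNC (-0.19, SE 0.0529, adjusted p = 0.0371).

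ZNF723 and ZNF43 separated the compounds without overlap, and all 3 genes were lower in PROTAC in 3 of 3 pairs. ZNF43 was not called in UNC against DMSO (0.15, adjusted p = 0.0536), but DESeq2 with the same block called it higher there (0.16, adjusted p = 0.031). ZNF235 in cluster 5 had 6.03, 2.97 and 3.5 CPM in PROTAC, and 8.05, 4.08 and 4.56 CPM in UNC (-0.41, SE 0.119, adjusted p = 0.0497). By group alone the adjusted p of the 4 genes were 0.687 to 1.0. The ZNF235 call was also lost in the paired fits with DESeq2, library-size or upper-quartile scaling (adjusted p = 0.0557 to 0.0743), and that of ZNF723 with library-size scaling (adjusted p = 0.0592). The count of 4 was 0 without PROTAC replicate 2, PROTAC replicate 3, UNC replicate 2 or UNC replicate 3, 1 (in the other direction) without UNC replicate 1, 2 without DMSO replicate 3 and 7 without DMSO replicate 1.

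Genes with well-studied roles were not called in any comparison by group alone or in the paired fit, and are given as levels. ZNF91, a repressor of SVA retrotransposons, was at 92.4 ± 2.92 CPM in PROTAC, 97.2 ± 4.94 CPM in UNC and 101 ± 6.11 CPM in DMSO (SD, n = 3 each, as in all levels below). ZNF93, which acts on L1 elements, was at 34.3 ± 1.95 CPM in PROTAC, 33.5 ± 1.12 CPM in UNC and 36.7 ± 3.9 CPM in DMSO. ZNF649, also a binder of L1, was at 64.0 ± 1.72 CPM in PROTAC, 67.9 ± 1.97 CPM in UNC and 68.2 ± 2.05 CPM in DMSO. For ZNF91 and ZNF649, PROTAC lay below DMSO without overlap, while ZNF93 overlapped.

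The similar pair ZNF417 and ZNF587 represses endogenous retroviruses of the HERV-K family. ZNF587 was at 69.1 ± 3.25 CPM in PROTAC, 68.8 ± 4.92 CPM in UNC and 71.3 ± 4.7 CPM in DMSO. ZNF417 was at 15.9 ± 1.04 CPM in PROTAC, 16.7 ± 1.04 CPM in UNC and 17.6 ± 1.21 CPM in DMSO. ZNF587 shares 20.15% and ZNF417 40.08% of its 50-base words with other genes, so the split between them is uncertain.

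ZNF676 was at 90.6 ± 6.5 CPM in PROTAC, 97.2 ± 7.67 CPM in UNC and 92.1 ± 5.91 CPM in DMSO. ZNF729 was at 73.8 ± 13.7 CPM in PROTAC, 83.7 ± 16.3 CPM in UNC and 80.4 ± 12.8 CPM in DMSO, its spread following the replicate number. ZNF98 was at 31.9 ± 1.98 CPM in PROTAC, 32.9 ± 4.17 CPM in UNC and 32.9 ± 1.99 CPM in DMSO, with 58.1% of its words shared. These 3 neighbours in cluster 3 all overlapped between groups.

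ZNF534 in cluster 6 was at 19.2 ± 1.69 CPM in PROTAC, 18.8 ± 2.43 CPM in UNC and 20.3 ± 2.05 CPM in DMSO. ZNF808, mutated in pancreatic agenesis, was at 61.8 ± 1.93 CPM in PROTAC, 57.7 ± 4.88 CPM in UNC and 63.6 ± 2.38 CPM in DMSO. With the block and library-size scaling it was called lower in UNC than in DMSO (-0.17, adjusted p = 0.0471). ZNF331, an imprinted gene at the end of cluster 6, was at 27.8 ± 1.61 CPM in PROTAC, 29 ± 1.99 CPM in UNC and 30.4 ± 1.43 CPM in DMSO. None separated the groups.

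ZNF274, which binds the 3′ ends of ZNF genes themselves and brings SETDB1 there, was at 18.3 ± 1.05 CPM in PROTAC, 19.5 ± 2.5 CPM in UNC and 21.0 ± 4.05 CPM in DMSO. ZNF473, needed for histone mRNA 3′ processing, was at 24.3 ± 1.21 CPM in PROTAC, 23.8 ± 1.13 CPM in UNC and 24.7 ± 1.49 CPM in DMSO. ZNF296, linked to pluripotency factor networks, was at 53.4 ± 4.02 CPM in PROTAC, 48.3 ± 4.62 CPM in UNC and 48.5 ± 2.08 CPM in DMSO, overlapping between groups.

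The proteins that KRAB zinc fingers work with were looked at as a list of 23 corepressors and heterochromatin factors, all found in the table. By group alone edgeR called 0 in each comparison, with 1 at an unadjusted p under 0.05 in PROTAC against DMSO (4.35%, against 4.96% of all genes), 3 in UNC against DMSO (13.0% against 12.4%) and 0 in PROTAC against UNC (against 4.7%). There DESeq2 called 2 in UNC against DMSO (CHD3 and HDAC2), where it called 3.31% of all genes, and 0 in the others. In each comparison limma-voom called 0, where it called 0.649% of all genes in UNC against DMSO. In the paired fit 0 were called in PROTAC against DMSO, with 4 at an unadjusted p under 0.05 (17.4%, against 15.9% of all genes), and 0 in PROTAC against UNC, with 1 (4.35% against 13.0%). DESeq2 with the same block also called 0 in both, where it called 3.52% and 2.59% of all genes. In UNC against DMSO the paired fit called 3 of 23 (13.0%), all higher, which is close to the 13.5% called among all genes and below the 18.2% of those with a mean of at least 1 CPM. At an unadjusted p under 0.05 there were 5 (21.7%), against 25.6% of all genes. CHD4 was not called with library-size or upper-quartile scaling, on leaving out any single UNC or DMSO library, or without number 2 or number 3. With library-size scaling CBX5, a heterochromatin protein, was called lower, and without number 2 only CHD3 was called. CHD3, a NuRD remodelling ATPase that binds TRIM28, was at 37.6 ± 2.93 CPM in UNC and 29.7 ± 3.48 CPM in DMSO (0.34, SE 0.0608, adjusted p = 0.000106). Its paralog CHD4 was at 423 ± 6.6 CPM in UNC and 381 ± 8.59 CPM in DMSO (0.15, SE 0.0507, adjusted p = 0.0398). The deacetylase HDAC2 was at 140 ± 8.37 CPM in UNC and 120 ± 1.9 CPM in DMSO (0.22, SE 0.0499, adjusted p = 0.00232). TRIM28 itself was at 793 ± 6.29 CPM in PROTAC, 785 ± 34.7 CPM in UNC and 775 ± 3.46 CPM in DMSO, and SETDB1 at 75.0 ± 1.62 CPM in PROTAC, 79.4 ± 0.435 CPM in UNC and 80.4 ± 1.87 CPM in DMSO, neither called.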

How the data were processed

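The deposited table gives raw counts of reads for each gene, as whole numbers, beside its GRCh38 coordinates. Trim Galore 0.6.10 and HISAT2 2.2.1 are the tools named for trimming and alignment in the submitters' processing notes. How reads were assigned to genes, and whether strand was used, is not given in the sources used here. Libraries were made with depletion of ribosomal RNA, per the labels' protocols, while the labels' molecule field reads polyA RNA, so the selection is uncertain. The table held 5 rows without an identifier, which were not removed before the fits.

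Counts were fitted with edgeR 4.0.16 in R 4.3.3 (TMM; filterByExpr, which kept 24187 genes; robust quasi-likelihood; all 9 libraries). CPM values are counts scaled to a total of 1000000 per library, with the TMM factor. The paired fit adds the replicate number as a block. Correlations of deviations from group means were 0.106 to 0.472 between libraries of equal number (median 0.264) and -0.324 to 0.0753 otherwise, and each equal-number value was over 0.1, the threshold for pairing. Deviations within a group sum to 0, so positive values at equal numbers push the others down and the contrast is partly built in. For number 3 it was slight: PROTAC 3 had 0.106 with UNC 3 and 0.0753 with UNC 2. The pairing comes from the data and the titles' numbers. The design text states 3 independent experiments but not that a number marks one. The common coefficient of biological variation was 6.09% paired and 13.2% by group alone. On simulated counts for PROTAC against DMSO over 23714 genes, changes of 0.5 on the log2 scale were recovered at 19% by group alone and 83% paired, and changes of 1 at 88% and 98%. The paired fit made 11 false calls there, and the fit by group alone made 0. A set effect of the replicate number was put into these counts, with the spread of the paired fit, so pairing was favoured by construction. Changes under 0.5 were not simulated. Chi-square over degrees of freedom within groups was 11.4 to 37.9, so no library was counted as a copy.

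Alternatives were other scalings (upper-quartile, RLE, library size), DESeq2 1.42.0, limma 3.58.1 (voom), other filters, a fit of the 6 libraries compared, a stricter threshold, and leaving out libraries. Genes named were, up to 6 each way per comparison with DMSO and 4 between compounds, those called at 1 CPM or more, a list with known roles, and the 5 highest. The genes and lists were chosen with earlier results of these data known. Fingers (C, 2 to 4 residues, C, 12 residues, H, 3 to 5 residues, H) and the KRAB pattern were searched in translations of GENCODE 29 coding sequences, since no protein table was used here, and promoters came from RefSeq.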

Additional observations from a re-analysis of the deposited data

How the results depend on the processing

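The spread between libraries limits these results. By group alone the simulated fit, with its built-in replicate effect, recovered 19% of changes of 0.5 on the log2 scale. No gene of the set above 1 CPM moved that far here. The count of 0 by group alone thus says little about changes of that size or smaller. The paired fit has 4 residual degrees of freedom, and most of its calls were lost without some library. Genes that overlap or share sequence may trade reads, and low counts limit ZNF781 and ZNF540.

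By group alone the counts of called genes were 0 under each scaling, filter, sample set and leave-out tried, save these, in PROTAC against DMSO, UNC against DMSO and PROTAC against UNC in turn. With the replicate block they were 4, 12 and 4. In UNC against DMSO, DESeq2 called 3, and the fit without a filter called 3 (ZNF578, ZNF600 and ZNF781, all lower). The corepressor count in UNC against DMSO was 2 with DESeq2, 1 without a filter and 3 with the block.

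In the paired fit, PROTAC against DMSO had 4 calls, 0 at a false discovery rate of 0.01 (an alternative chosen after seeing the data), 0 without the block and 0 to 10 when libraries or numbers were left out. UNC against DMSO had 12 calls (5 higher, 7 lower), 20 with library-size scaling (5 higher, 15 lower), 0 without the block and 3 to 22 in leave-outs, where number 1 gave 22, number 2 gave 3 and number 3 gave 6. PROTAC against UNC had 4 calls, 0 at 0.01, 2 with library-size scaling, 0 without the block and 0 to 7 in leave-outs. The corepressor count in UNC against DMSO was 3, 0 without the block and 1 to 4 in leave-outs, where number 2 gave 1 (CHD3 higher) and number 1 gave 4 (3 higher, and CBX5 lower). With library-size scaling it was 2 higher and CBX5 lower. In PROTAC against UNC the corepressor count was 0, with 0 to 1 in leave-outs. For the leave-outs, other scalings and stricter threshold the share of all genes called is not given here, so these shifts may not be particular to the genes counted. Apart from the constructions themselves (fewer samples, a stricter threshold, no block) the cause was not tested. No called gene changed sign in any setting.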
